A study of Mus musculus with 8 samples.

Results

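The levels of 10 genes that type I interferon induces in most cells were followed in mouse liver during endotoxemia. They are *Ifit1*, *Ifit2*, *Ifit3*, *Isg15*, *Rsad2*, *Oasl1*, *Oasl2*, *Oas1a*, *Mx1* and *Usp18*. They were taken by symbol from count files of 23282 rows, and each of the 10 symbols stood on 1 row. Liver RNA of C57BL/6 mice, described in the study's methods as 4-week-old males, was sequenced by a method that reads only the 3′ end of a transcript, and gene length therefore does not enter the counts. The control group received saline, the endotoxemic group received 25 mg/kg LPS intraperitoneally, and the LGK974 group received LGK974, an inhibitor of the porcupine enzyme that Wnt ligands need for secretion. The labels give neither a dose nor LPS for the LGK974 group, and the methods state 60 mg/kg LGK974 together with 25 mg/kg LPS. Livers were collected 6 h after LPS, and in most experiments LGK974 was given 2 h before it. No group received LGK974 alone. The question for these genes was how far LPS raised them and whether they stood at another level under LGK974.

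The control and LGK974 groups had 2 libraries each. The endotoxemic group had 4, but libraries 3 and 4 repeated the counts of libraries 1 and 2 on every row and were counted once, which left 2 distinct libraries in each group. Libraries held between 9142116 and 15222439 counts, and 3 counts, the smallest signal read here, corresponded to 0.197 to 0.328 CPM by library total, before the TMM normalization of the CPM values given for genes. This floor reflects counting error and nothing else. The labels do not say whether the libraries of a group came from separate mice, so p-values measure the spread between libraries, which may be technical. The sex-linked genes did not match the stated sex in all libraries. *Xist*, transcribed from the inactive X chromosome of females, had between 1171 and 3115 counts in the 4 distinct control and endotoxemic libraries and 3 and 7 counts in the LGK974 libraries. *Ddx3y*, a Y-linked gene, had 0 counts in each of those 4 libraries and 1755 and 1392 in the LGK974 libraries. This difference and the treatment cannot be told apart in any comparison with the LGK974 group.

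Most rows of the files follow the order of genes along the chromosomes, 22324 of the 23055 rows that could be placed. Called out of order were 526 rows whose symbol belongs to a gene more than 2 Mb from the genes around it. Rows displaced by less were counted as in order. All 10 genes studied here stood in genomic order. Among the rows next to them, or next but one, the only symbol out of place was *Gper1*, beside *Ifit2* and next but one to *Ifit3*. On GRCm38, *Ifit2*, *Ifit3* and *Ifit1* lie within 1 cluster on chromosome 19, with *Ifit1* at chr19:34640871-34650009. *Oasl2* and *Oasl1* are neighbours on chromosome 5, and *Oas1a* lies further along the same chromosome at chr5:120896256-120907521. *Isg15* is at chr4:156199424-156200818, *Rsad2* at chr12:26442746-26456452, *Mx1* at chr16:97447035-97462907 and *Usp18* at chr6:121245906-121270917. Reads from the last 500 bases of a transcript can be shared with a copy of the gene. Of the 50-base stretches in that region of *Oas1a*, 56.1% also occur in *Oas1g*, and 14.9% of those of *Ifit3* occur in *Ifit3b*, so the counts of *Oas1a* and *Ifit3* are uncertain to that extent. *Isg15* shared 0.665% of these stretches with another gene, and the remaining 7 genes shared none.

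Type I interferons signal through the IFNAR receptor and the kinases JAK1 and TYK2 to a transcription factor complex that includes STAT2 and IRF9. This complex binds the interferon-stimulated response element (ISRE) in the promoters of antiviral genes. LPS reaches the same genes when TLR4 signals through the adaptor TRIF to the factor IRF3, which drives interferon beta and can also act on ISREs directly. In the liver, Kupffer cells sense circulating LPS, while hepatocytes, the bulk of the tissue, respond to the interferon released.

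The promoter letters are shown because the 10 genes moved together and an ISRE is the element they are known to share. The ISRE core was searched as GAAANNGAAA and the gamma-activated site (GAS), the element of interferon gamma responses, as TTCNNNGAA, each on both strands of the 250 bases before the start in RefSeq promoters of GRCm38.p6. The table of promoters held 8 of the 10 genes, all but *Mx1* and *Usp18*. The ISRE letters were found in 5 of the 8 genes (62.5%), against 3.46% of 27025 genes in the table. The GAS letters were found in *Ifit2* and *Oas1a*, 25% of the 8, against 8.13% of all genes. *Oasl1* had neither and *Oasl2* had neither in this window. The stretches with ISRE letters are given 5′ to 3′ on the strand of the gene, with the matched bases in capitals. Matches on the opposite strand read TTTCNNTTTC. They lie at chr19:34640770-34640828 for *Ifit1*, chr19:34583358-34583431 for *Ifit3*, chr4:156200860-156200911 for *Isg15* (minus strand), chr12:26456548-26456587 for *Rsad2* (minus strand) and chr5:120907526-120907560 for *Oas1a* (minus strand).
Ifit1: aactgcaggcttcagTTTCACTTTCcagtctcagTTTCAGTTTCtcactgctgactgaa
Ifit3: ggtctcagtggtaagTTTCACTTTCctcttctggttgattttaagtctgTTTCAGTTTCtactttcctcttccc
Isg15: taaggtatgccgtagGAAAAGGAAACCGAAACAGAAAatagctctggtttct
Rsad2: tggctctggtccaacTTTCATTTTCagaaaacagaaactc
Oas1a: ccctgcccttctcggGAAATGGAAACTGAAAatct
*Isg15* held 3 overlapping matches and *Oas1a* 2 overlapping matches, on the strand of the gene. *Ifit1* and *Ifit3* each held 2 separate matches and *Rsad2* 1, all on the opposite strand. A match is a description of the letters and does not show that a factor binds there.

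**Figure D1:**
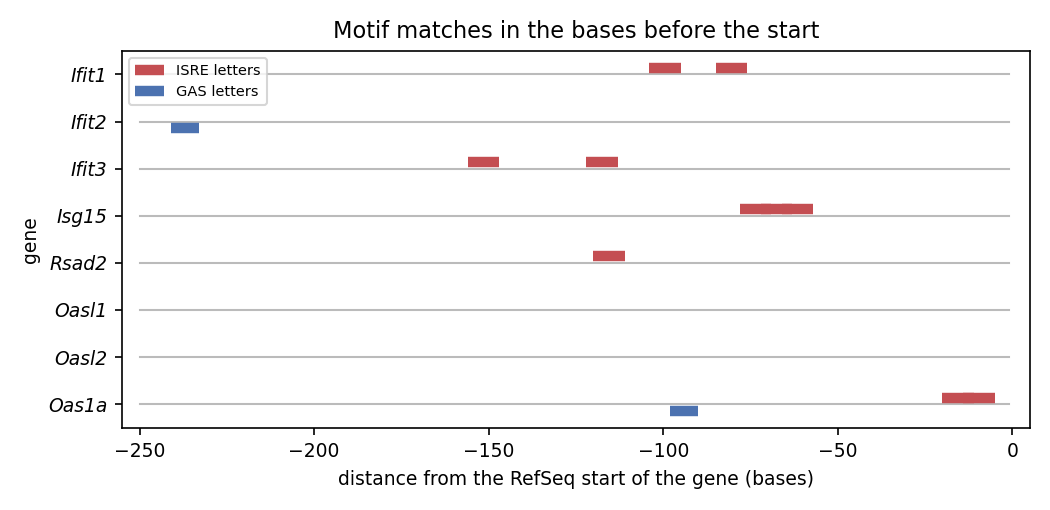
Positions of the ISRE letters (red) and GAS letters (blue) in the 250 bases before the RefSeq start of each gene in the promoter table; the x axis is the distance from the start in bases and each grey line is 1 gene. The ISRE letters of Isg15 span bases −78 to −57 and those of Oas1a bases −20 to −5, and Oasl1 and Oasl2 have no match.

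All 10 genes were higher in the liver after LPS. In the endotoxemic group, each gene stood above both control libraries in both distinct libraries, and edgeR's quasi-likelihood test called 10 of 10 higher at a Benjamini-Hochberg adjusted p below 0.05. Of the 12701 rows tested, 20.4% were called higher and 23% lower, and 37.9% had both endotoxemic libraries above both control libraries. The log2 fold changes ran from 2.52 for *Usp18* to 5.39 for *Isg15*, with a median of 3.54 against 0.01 over all rows tested. The 10 genes together went from 0.0161% and 0.0162% of the counts in the control libraries to 0.290% and 0.277% in the endotoxemic libraries. In whole liver, a change in the number of cells that make a transcript and a change in transcript per cell cannot be told apart.

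**Figure D2:**
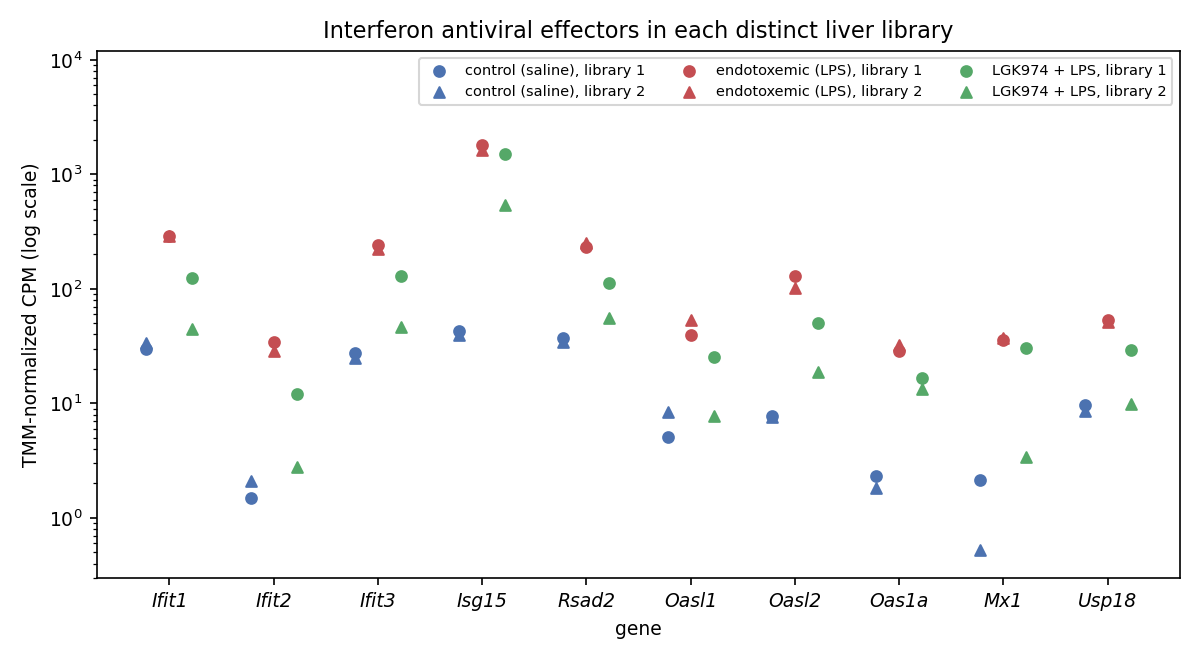
Level of each gene in each distinct library, as TMM-normalized CPM on a log axis; colours mark the group and shapes the library, 2 per group. Both endotoxemic libraries lie above both control libraries for every gene, and LGK974 library 1 lies above LGK974 library 2 for every gene.

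The ISG15 system was represented by the modifier and its protease. *Isg15* encodes a ubiquitin-like protein that is attached to other proteins and is also secreted. It had 42.8 and 39.3 CPM after saline, 1807 and 1633 CPM after LPS, and 1501 and 537 CPM with LGK974. It was 41.9-fold higher after LPS than after saline (log2 fold change 5.39, SE 0.47, adjusted p = 2.99e-05), and the endotoxemic and LGK974 libraries all lay above the control libraries. *Isg15* alone made up 25.9% and 24.4% of the counts of the 10 genes after saline, 62.5% and 60.5% after LPS, and 73.9% and 72.7% with LGK974. *Usp18* encodes the protease that removes ISG15 and also binds IFNAR2 to restrain the receptor. Its level was 9.74 and 8.56 CPM after saline, 53.7 and 51.4 CPM after LPS, and 29.3 and 9.81 CPM with LGK974. It rose 5.75-fold with LPS (log2 fold change 2.52, SE 0.44, adjusted p = 0.00162), the smallest rise of the 10. LGK974 library 2 stood only just above the higher control library for *Usp18*.

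The 3 IFIT proteins bind viral RNA and hold back its translation. *Ifit1*, whose product recognises RNA caps that lack a methyl group, had 29.7 and 34.0 CPM after saline, 290 and 291 CPM after LPS, and 125 and 44.2 CPM with LGK974. It rose 9.11-fold with LPS (log2 fold change 3.19, SE 0.42, adjusted p = 0.000348), and the endotoxemic libraries differed by a ratio of 1.004. *Ifit3* had 27.5 and 24.8 CPM after saline, 242 and 224 CPM after LPS, and 129 and 46.8 CPM with LGK974. Its rise of 8.94-fold (adjusted p = 0.000331) was within the interval of that of *Ifit1*. *Ifit2* was low in the control libraries, at 1.48 and 2.09 CPM from 16 and 32 counts. It stood at 34.2 and 28.5 CPM in the endotoxemic libraries and at 12.2 and 2.77 CPM in the LGK974 libraries. *Ifit2* had the largest estimate of the 3 for LPS, 4.11 on the log2 scale (SE 0.62, adjusted p = 0.000752), and the intervals of the 3 overlapped. The difference between the 3 was not tested.

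*Rsad2* encodes viperin, a radical SAM enzyme that makes a chain-terminating nucleotide. It was the second highest of the 10 in the control group, at 36.9 and 34.1 CPM, and reached 233 and 249 CPM in the endotoxemic libraries and 113 and 55.2 CPM in the LGK974 libraries. The rise with LPS was 6.79-fold (log2 fold change 2.76, SE 0.32, adjusted p = 0.000149). *Mx1* encodes a dynamin-like GTPase that blocks influenza virus in the nucleus. C57BL/6, like most laboratory strains, carries a defective *Mx1* allele, so its transcript is measured here without a working protein. *Mx1* had the lowest control mean of the 10, with 23 and 8 counts (2.13 and 0.523 CPM) that overlapped with *Ifit2*. It had 35.9 and 37.0 CPM in the endotoxemic libraries and 30.3 and 3.38 CPM in the LGK974 libraries. Its log2 fold change with LPS was 4.86 with the widest interval of the 10 (2.67 to 7.05, adjusted p = 0.00353).

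The OAS proteins sense double-stranded RNA. *Oas1a* encodes an enzyme whose product, oligoadenylate, switches on RNase L, and reads of *Oas1a* can be shared with *Oas1g*. *Oas1a* had 2.32 and 1.83 CPM after saline, 28.9 and 32.4 CPM after LPS, and 16.7 and 13.3 CPM with LGK974. Its rise of 14.8-fold (log2 fold change 3.89, SE 0.30) had the smallest adjusted p of the 10, 1.47e-05, and its LGK974 libraries were the closest together of the 10. *Oasl1* and *Oasl2* encode OAS-like proteins that carry ubiquitin-like domains, and OASL1 is known to restrain translation of *Irf7*. *Oasl2* had 7.70 and 7.58 CPM after saline, 129 and 101 CPM after LPS, and 50.5 and 18.8 CPM with LGK974, a rise of 15.1-fold with LPS (adjusted p = 0.000119). *Oasl1* had 5.10 and 8.43 CPM after saline, 39.7 and 53.4 CPM after LPS, and 25.7 and 7.78 CPM with LGK974, a rise of 6.81-fold (adjusted p = 0.00232). LGK974 library 2 lay between the control libraries for *Oasl1*, and none of the other 9 genes had such an overlap.

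In mean CPM over the 2 distinct libraries of a group, *Isg15* was the highest of the 10 in every group, at 41.0 ± 2.44 (SD, n = 2) in the control, 1720 ± 124 in the endotoxemic and 1019 ± 682 in the LGK974 group. The control order below it was *Rsad2*, *Ifit1*, *Ifit3*, *Usp18*, *Oasl2*, *Oasl1*, *Oas1a*, *Ifit2* and *Mx1*, with mean CPM from 35.5 to 1.33. *Oasl2* and *Oasl1* overlapped in this group, as did *Oas1a*, *Ifit2* and *Mx1* as neighbours. In the endotoxemic group the order was *Isg15*, *Ifit1*, *Rsad2*, *Ifit3*, *Oasl2*, *Usp18*, *Oasl1*, *Mx1*, *Ifit2* and *Oas1a*, from 1720 down to 30.6. There, *Rsad2* overlapped with *Ifit3*, *Usp18* with *Oasl1*, and *Ifit2* with *Oas1a*. In the LGK974 group the spread was such that 6 of the 9 pairs of neighbours overlapped.

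With LGK974, all 10 genes had lower estimates than in the endotoxemic group, and 4 of them passed the test. *Rsad2* had a log2 fold change of −1.52 (95% interval −2.21 to −0.84, adjusted p = 0.0237), *Ifit1* of −1.78 (−2.68 to −0.88, adjusted p = 0.0365), *Oasl2* of −1.73 (−2.61 to −0.86, adjusted p = 0.0371) and *Oas1a* of −1.03 (−1.60 to −0.47, adjusted p = 0.0473). Over all rows tested, 2.82% were called lower and 2.8% higher. For all 10 genes both LGK974 libraries lay below both endotoxemic libraries, which 26% of all rows also did. The median log2 fold change of the 10 was −1.46, against 0.03 over all rows. This comparison shares the endotoxemic libraries with the comparison of endotoxemic and control livers.

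The other 6 genes missed the threshold. *Ifit2* had the largest estimate, −2.08 (−3.31 to −0.85, adjusted p = 0.0597), followed by *Oasl1* at −1.48 (adjusted p = 0.107), *Usp18* at −1.43 (adjusted p = 0.0795) and *Ifit3* at −1.41 (adjusted p = 0.0685). The intervals of *Isg15* (−1.63 to 0.12, adjusted p = 0.284) and *Mx1* (−2.85 to 0.61, adjusted p = 0.423) included 0, and the unadjusted p was below 0.05 for the other 8 genes. Of all 12701 rows tested, 2911 had an unadjusted p below 0.05 in this comparison, in either direction. With 1 library left out, all 10 estimates stayed negative. The widest range was −3.42 to −0.265 for *Mx1* and the narrowest −1.20 to −0.88 for *Oas1a*. Which genes passed depended on the library left out, and the number of rows called over the whole table moved with it. The number of the 10 called lower was 8 with DESeq2, 10 without a filter on low counts and 8 when the identical libraries were counted as separate samples. Over all rows, the number called lower went from 358 to 569, 824 and 1548 in these settings.

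**Figure D3:**
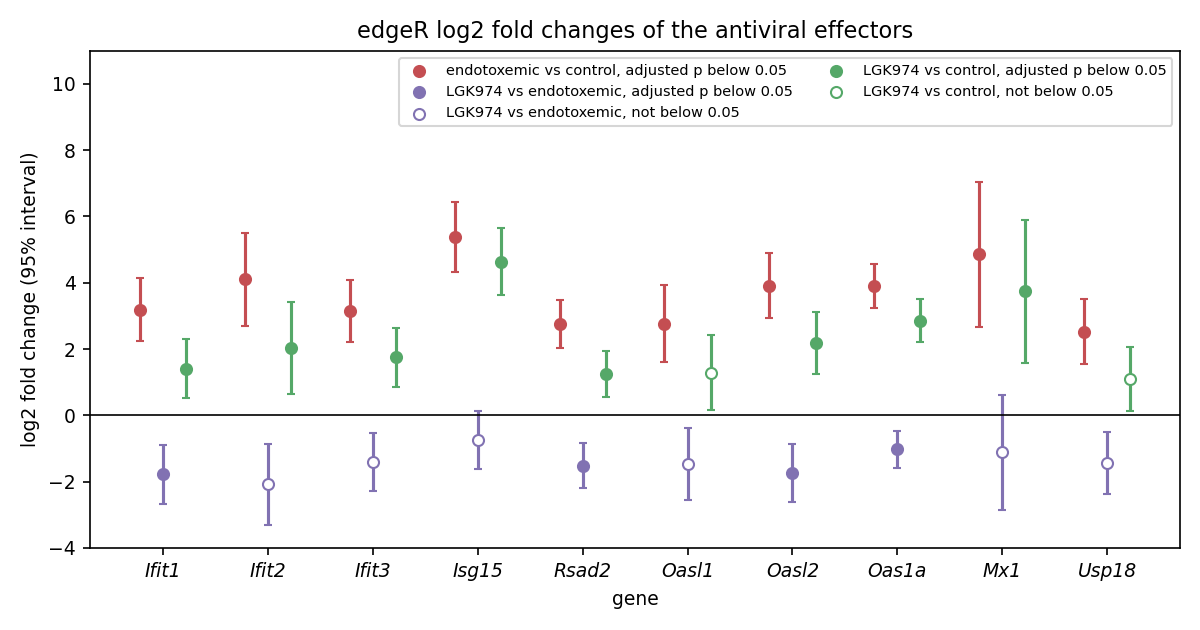
edgeR log2 fold change of each gene in the 3 comparisons, with its 95% interval; filled points passed an adjusted p below 0.05 and open points did not. All 10 endotoxemic estimates lie between 2.52 and 5.39, and the LGK974 estimates against the endotoxemic group lie between −2.08 and −0.755, with 4 filled.

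In 9 of the 10 genes, all but *Oas1a*, the LGK974 libraries differed from each other by a larger ratio than the libraries of either other group. Library 1 was above library 2 for 10 of 10 genes, by a median log2 ratio of 1.49, where all rows tested had a median of 0 and an SD of 0.79. *Mx1* had the widest gap, 8.97-fold, and *Oas1a* the narrowest, 1.25-fold. The corresponding medians were 0.03 between the endotoxemic libraries and 0.12 between the control libraries. Over all rows the SD was 0.575 between the endotoxemic and 0.57 between the control libraries, so the LGK974 libraries were further apart there as well. In 8 of the 10 genes the LGK974 ratio lay above the 95th percentile of all rows, 1.21, with *Rsad2* at 1.03 and *Oas1a* at 0.32 below it. The summed CPM of the 10 genes was 2032 in LGK974 library 1 and 739 in library 2, against 2894 and 2701 in the endotoxemic and 165 and 161 in the control libraries. *Rn45s*, the ribosomal RNA row, held 4.80% of the counts in LGK974 library 1 and 9.38% in library 2, and with this row left out 4 of the 10 genes were again called lower than in the endotoxemic group.

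**Figure D4:**
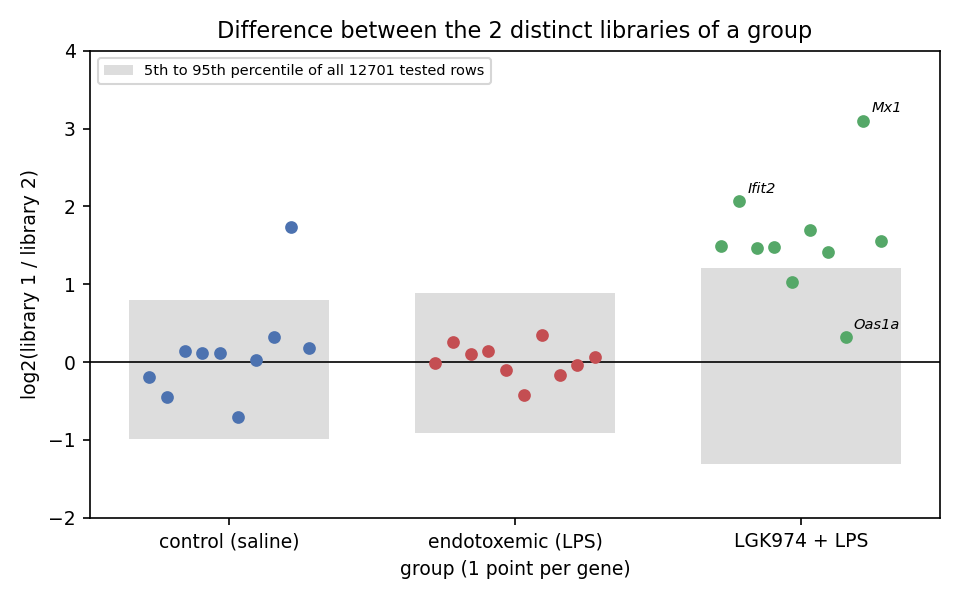
Log2 ratio of library 1 to library 2 for each of the 10 genes within each group, 1 point per gene; grey bars span the 5th to 95th percentile of all 12701 rows tested in that group. In the LGK974 group all 10 points lie above 0, from 0.32 for Oas1a to 3.10 for Mx1, and the medians of the other groups lie near 0.

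Against the control group, 8 of the 10 genes were higher in the LGK974 group and 2 did not pass the test. Over all rows, 16.4% were called higher and 17.7% lower, and 33.8% had both LGK974 libraries above both control libraries, as 9 of the 10 genes did. *Isg15* was 24.8-fold higher (log2 fold change 4.63, SE 0.45, adjusted p = 7.78e-05), *Mx1* 13.4-fold (adjusted p = 0.0151), *Oas1a* 7.26-fold (adjusted p = 9.88e-05), *Oasl2* 4.52-fold (adjusted p = 0.00358) and *Ifit2* 4.08-fold (adjusted p = 0.0302). *Ifit3*, *Ifit1* and *Rsad2* were 3.37-fold, 2.65-fold and 2.36-fold higher. *Oasl1* (log2 fold change 1.29, adjusted p = 0.0759) and *Usp18* (1.09, adjusted p = 0.0770) did not pass. The number called higher was 4 without control library 1 and 3 without control library 2, and it ran from 6 to 10 when a library of another group was left out.

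The interferons themselves were hardly seen. Of 20 type I and type III interferon genes, none had enough counts to be tested, and 18 had 0 counts in all 6 distinct libraries, *Ifnb1* among them. *Ifnk* had 5 counts in control library 1 and *Ifnz* 1 count in endotoxemic library 1. At 0 counts, a level of up to 0.197 to 0.328 CPM by library total remains possible.

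Of the receptor and JAK-STAT genes, LPS left 6 of 10 tested higher than in the control group and 0 lower, with a median log2 fold change of 0.72. The number higher was 5 with DESeq2, and 2 to 4 without any 1 of the control and endotoxemic libraries. The receptor chains did not pass, with *Ifnar1* at −0.31 (adjusted p = 0.371) and *Ifnar2* at −0.31 (adjusted p = 0.245). *Stat2* rose by 1.34 (adjusted p = 0.00178) and *Irf9* by 0.98 (adjusted p = 0.00817). *Il10rb*, a chain of the type III interferon and IL-10 receptors, rose by 1.37. In the LGK974 group *Ifngr2*, a chain of the interferon gamma receptor, was the only one of the 10 called higher than in the control group, by 0.80. Against the endotoxemic group, *Stat2* (−0.67, adjusted p = 0.124) and *Irf9* (−0.68, adjusted p = 0.119) did not pass.

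On the LPS side, 7 of 12 genes stood on rows out of genomic order, *Tlr4*, *Cd14*, *Ly96*, *Lbp*, *Ticam1*, *Ticam2* and *Tlr3*, so the values under these symbols were not read. Of the 5 in order, 4 were higher in the endotoxemic group and *Irf3* did not pass (−0.31, adjusted p = 0.335). *Irf7*, the factor that amplifies interferon production, rose by 3.50 (adjusted p = 7.46e-05), and *Ikbke*, a kinase of IRF3, by 2.13. None of the 5 was called by edgeR between the LGK974 and endotoxemic groups, where 1 had an unadjusted p below 0.05 and *Irf7* had −0.43 (adjusted p = 0.470). DESeq2 called 1 of these 5 lower. Of all 12701 rows tested by edgeR, 2911 had an unadjusted p below 0.05 between these groups. The same 4 genes were higher in the LGK974 than in the control group, with *Irf7* at 3.07 and *Traf3*, an adaptor of the TRIF arm, at 1.49.

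Genes of receptor feedback were mixed. In the endotoxemic group 3 of 7 were higher and 1 lower. *Socs1*, an inhibitor of JAK kinases, rose by 7.16 on the log2 scale (adjusted p = 1.77e-05), from 17 and 7 counts in the control libraries, and *Socs3* by 3.61. *Trim24*, a repressor of interferon signaling in liver, fell by 1.81. Against the endotoxemic group, *Socs1* was lower in the LGK974 group, at −1.94 (adjusted p = 0.0284), *Cish* was lower, at −1.67 (adjusted p = 0.0181) and *Trim24* was higher, at 1.56 (adjusted p = 0.0110). *Trim24* had 31.7 and 36.2 CPM in the control, 10.3 and 9.16 CPM in the endotoxemic and 24.3 and 32.9 CPM in the LGK974 libraries, so the endotoxemic group alone was low. Against the control group *Socs1* (5.23) and *Socs3* (2.85) were higher and *Cish* was lower (−1.55).

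Most tested relatives of the 10 genes were also higher after LPS. Of 13 *Ifit*, *Oas* and *Mx* relatives 9 were tested, and 7 were higher in the endotoxemic group and 0 lower, with a median of 3.80. *Ifit1bl1* (0.24, adjusted p = 0.885) and *Oas1c* (−0.92, adjusted p = 0.328) did not pass. *Oas3* rose by 5.43 from 0 and 6 counts in the control libraries, *Oas2* by 4.12, *Oas1g* by 3.80, *Mx2* by 3.68 and *Ifit3b* by 3.11. *Oas1b* had 2 and 0 counts in the control and 24 and 17 counts in the endotoxemic libraries. edgeR called 0 of the 9 between the LGK974 and endotoxemic groups, and DESeq2 called 3 lower. At an unadjusted edgeR p below 0.05 stood 7 of the 9, beside 2911 of all 12701 rows tested. These 7 estimates were negative, from −2.61 for *Oas2* to −1.07 for *Oas1g*. Against the control group 4 were higher, led by *Oas3* (3.96) and *Oas1g* (2.73).

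Of 5 enzymes linked to ISG15 attachment, 3 rose after LPS. *Herc6*, the main ISG15 ligase of mice, rose by 4.10 (adjusted p = 0.000789), *Uba7*, the activating enzyme, by 1.73 and *Ube2l6*, the conjugating enzyme, by 1.20. *Trim25* (0.18, adjusted p = 0.468) and *Herc3* (−1.37, adjusted p = 0.146) did not pass. Between the LGK974 and endotoxemic groups 0 of the 5 were called by edgeR or DESeq2, and 1 had an unadjusted p below 0.05. Of all 12701 rows tested by edgeR, 2911 had such a p. Against the control group 3 were higher in the LGK974 group, with *Herc6* at 2.92 and *Uba7* at 1.08. *Herc6* had 125 CPM in LGK974 library 1 and 27.1 CPM in library 2.

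Sensors of viral nucleic acid were higher in the endotoxemic group for 12 of 13 genes tested and lower for 0, with a median of 2.08. *Zbp1*, which senses Z-form nucleic acid, rose by 4.81 and *Ifi204*, a DNA sensor, by 3.29. Against the endotoxemic group 5 of 13 were lower in the LGK974 group, with *Ddx60* at −1.86 (adjusted p = 0.0185) and *Ifi203* at −1.80 (adjusted p = 0.00448) the largest. The count was 1 and 0 without endotoxemic library 1 and 2 and 10 without LGK974 library 1. Against the control group 5 were higher, led by *Zbp1* (4.51) and *Tmem173* (2.16), which encodes STING, and *Mavs*, the adaptor of RNA sensors, was lower (−0.87, adjusted p = 0.0475). No sensor was called lower here with library totals in place of TMM, with out-of-order rows left out, or without either control library or LGK974 library 1.

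The widest list held other antiviral interferon-stimulated genes. Of 48 tested in genomic order, 44 were higher in the endotoxemic group and 0 lower, with a median of 1.96. *Ms4a4c*, a membrane protein gene, and *Phf11d* had the largest rises, with *Phf11d* at 4.62. Between the LGK974 and endotoxemic groups 23 of 48 were lower and 0 higher, with a median of −1.18. *Trim34a* (−2.74, adjusted p = 0.00368) and *Trim30a* (−2.31, adjusted p = 0.00794) led this list. With *Plscr1*, whose row is out of order, counted in as a 49th gene, the number lower was again 23. It was 12 without either control library, 5 and 1 without endotoxemic library 1 and 2, and 38 without LGK974 library 1. Against the control group 29 were higher, led by *Ms4a4c* (4.37) and *Slfn1* (3.35), and *Helz2* was lower (−0.63, adjusted p = 0.0415). The call of *Helz2* was lost with DESeq2, without a filter on low counts and without any 1 of the control and endotoxemic libraries.

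The rows most like the mean of the 10 genes over the 6 distinct libraries were *Pold3* (Pearson's r = 0.9994), *Zfp68* (0.9984), *Amigo2* (0.9978), *Iigp1* (0.9977) and *Eif2ak2* (0.9974), out of 12198 rows compared, of which 41 had an r above 0.99. The libraries fall into 3 groups, so these values describe a shared shape over the groups and not the size of a change. In the order named, the 5 rows rose by 1.47, 1.25, 2.36, 3.18 and 2.43 on the log2 scale with LPS. The median of the 10 genes was 3.54. *Iigp1*, an interferon-inducible GTPase, had 678 and 635 CPM in the control, 6219 and 5658 CPM in the endotoxemic and 3304 and 1155 CPM in the LGK974 libraries. The 5 rows were chosen on the same 6 libraries, so the shape of their levels follows from the choice. *Eif2ak2*, which encodes the RNA-activated kinase PKR, had 8.07 and 7.97, 46.8 and 40.0, and 27.5 and 14.5 CPM in the same order. Among the 10 genes, each against the mean of the other 9, *Ifit3* had the highest r (0.998) and *Isg15* the lowest (0.930).

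Markers of 9 cell types were read beside these genes. For neutrophils, 4 of 8 listed markers were in genomic order, and their summed level was 1.76 to 2.16 CPM in the control, 92.5 to 107 CPM in the endotoxemic and 64.5 to 69.9 CPM in the LGK974 libraries. *Camp* and *Ngp*, defining granule genes of neutrophils, were at 0 counts in both control libraries. For Kupffer cells, 8 of 9 markers were in order, of which 4 were called lower and 1, *Marco*, higher after LPS. *Marco* encodes a scavenger receptor. Their sum was 238 to 248 CPM in the control, 229 to 230 CPM in the endotoxemic and 140 to 177 CPM in the LGK974 libraries. Without *Marco*, left out after its values were seen, the other 7 summed to 231 and 242, 134 and 154, and 79.6 and 80.1 CPM. Of the hepatocyte markers, 9 of 10 were in order, and 6 were called lower and 1, the acute-phase gene *Fgb*, higher after LPS. They summed to 99790 to 134200 CPM in the control, 78170 to 105700 CPM in the endotoxemic and 83000 to 84510 CPM in the LGK974 libraries. The 8 markers other than *Fgb*, again chosen after the values were seen, summed to 122557 and 91285 CPM after saline, 57348 and 41001 CPM after LPS and 44869 and 43080 CPM with LGK974. For plasmacytoid dendritic cells, a strong source of type I interferon, 7 of 7 markers were in order, 4 were tested and edgeR called 0 of them in any comparison. At an unadjusted p below 0.05, *Spib* was lower in the LGK974 group than in each other group and *Tcf4* was higher than in the control group. Nearly all of their sum was *Tcf4*, which other cells also express, at 38.6 to 69.1 CPM. The other 6 summed to 5.10 and 3.66 CPM after saline, 6.11 and 4.16 CPM after LPS and 2.19 and 2.98 CPM with LGK974, and the defining marker *Siglech* had at most 15 counts in any library. T and NK cell markers, 9 of 9 in order, summed to 4.96 to 7.05 CPM in the control, 9.27 to 12.4 CPM in the endotoxemic and 3.45 to 4.30 CPM in the LGK974 libraries, with *Gzma* and *Gzmb* higher after LPS and *Ncr1* and *Eomes* at 0 counts throughout. Of the 4 tested, *Cd3d* (−0.54, adjusted p = 0.704) and *Nkg7* (−0.09, adjusted p = 0.928) did not pass with LPS. *Cd3e*, *Cd3g* and *Klrb1c* were too low to be tested. B cell markers, 5 of 5 in order, summed to 2.22 to 4.36, 2.07 to 3.73 and 0.0754 to 0.676 CPM in the same order, with *Pax5* at 0 counts throughout. Monocyte markers, 3 of 7 in order, summed to 11.5 to 13, 16.1 to 29.1 and 10.8 to 17.0 CPM, with *Ly6c2* called higher after LPS. *Lyz2* made up most of the control sum and went the other way, with 11.2 and 11.4, 4.36 and 4.47, and 2.04 and 6.83 CPM. Its edgeR log2 fold change with LPS was −1.36 (adjusted p = 0.052). *Ly6c2* had 0.278 and 0.980, 11.2 and 22.2, and 6.865 and 7.845 CPM, and *F13a1* did not pass after LPS (2.18, adjusted p = 0.138). Sinusoidal endothelial markers, 7 of 8 in order, summed to 266 to 274, 413 to 415 and 445 to 567 CPM, with 4 of 7 called lower and *Lyve1* higher after LPS. Without *Lyve1* the other 6 summed to 216 and 239, 55.7 and 76.8, and 46.5 and 68.5 CPM. Stellate cell markers, 7 of 7 in order, summed to 448 to 466, 564 to 604 and 482 to 577 CPM, with 4 of 7 called lower and *Dcn* higher after LPS. Without *Dcn* the other 6 summed to 109.1 and 108.7, 55.9 and 59.7, and 63.4 and 68.8 CPM. *Lyve1* and *Dcn* were left out after their values were seen. Between the LGK974 and endotoxemic groups, edgeR called 1 Kupffer cell and 1 sinusoidal endothelial marker lower and 1 stellate cell marker higher. It called 0 markers of the other cell types there. The numbers of these cells were not measured, and their part in the levels of the 10 genes was not tested.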

How the data were processed

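The authors sequenced liver RNA by QuantSeq, a 3′ method, and deposited whole-number counts per gene symbol without normalization. The submitters' processing notes list Bowtie2, edgeR and the build mm10, with no versions. The groups came from the sample labels, and the LGK974 and LPS doses of the LGK974 group, the times and the sex from the study's methods. A library that repeated another was dropped.

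The analysis used edgeR 4.0.16 under R 4.3.3 (filterByExpr by group, TMM, 1 quasi-likelihood fit of 3 groups to 6 distinct libraries), and p-values were adjusted by the Benjamini-Hochberg method over 12701 rows with a threshold of 0.05. SE and 95% intervals come from this fit. The common biological coefficient of variation was 0.239. CPM is TMM-normalized. The text names all 10 genes, the 2 largest rises and falls past the threshold of each pathway list in each comparison among rows in order, a fixed list of pathway genes, and the 5 rows most alike. *Cd14*, *Ly96*, *Lbp*, *Ticam2*, *Tlr3*, *Plscr1*, *Gper1*, *Oas1c*, *Trim25*, *Herc3*, *Rn45s* and the cell markers were named outside this rule. The genes and lists were chosen with earlier results of these data known. Promoters were read from RefSeq, GRCm38.p6, and gene positions from an annotation of GRCm38. Alternatives were RLE size factors, library totals, DESeq2 1.42.0, no filter, at least 10 counts in every library, identical libraries separate, a replicate block, reassigned symbols, out-of-order rows left out, *Rn45s* left out, and each library left out. One pathway gene is not reported here.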

Additional observations from a re-analysis of the deposited data

How the results depend on the processing

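No estimate of the 10 genes changed direction in any comparison under any alternative. In endotoxemic against control livers all 10 passed in every setting that tested them, with 9 at a minimum of 10 counts in every library, where *Mx1* was not tested. Between the LGK974 and endotoxemic groups 4 genes were called lower. The number was 8 with DESeq2, 10 without a filter on low counts and 8 with the identical libraries counted separately, and it ran from 0 to 10 when 1 library was left out. The number higher in LGK974 than in control livers, 8, ran from 3 to 10. Leaving out a library leaves a group with 1, which is then assumed to vary like the others.

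Over all rows, LGK974 against endotoxemic livers gave 356 higher and 358 lower, against 549 and 569 with DESeq2, 881 and 824 without a filter and 1711 and 1548 with identical libraries separate. With 1 library left out these ran from 23 to 1175 and from 26 to 1067. With 1 library left out, the endotoxemic against control numbers ran from 1517 to 3196 higher and from 1801 to 3523 lower, and the LGK974 against control numbers from 1041 to 2608 and from 1331 to 2761. With identical libraries separate, they were 3708 and 3929, and 2841 and 2918, in the same order. The causes were not tested.

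The labels number the libraries in each group, and same-numbered libraries deviated with correlations of −0.0075 to 0.14 over 2 pairs. With 2 libraries a group the deviations mirror each other, so these values cannot show whether same-numbered libraries share more than a number. With the replicate block, 10, 5 and 8 of the 10 genes were called in the 3 comparisons (higher, lower and higher), and over all rows 2577 and 2908, 330 and 355, and 2048 and 2259 were called higher and lower.

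With 2 distinct libraries a group, *Mx1* at 8 to 23 counts in the control livers is the least precise of the 10.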

Other observations

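The gap between the LGK974 libraries was not shared by all interferon genes. Library 1 was above library 2 for 8 of 9 *Ifit*, *Oas* and *Mx* relatives, by a median log2 ratio of 1.12, and for 37 of 48 other antiviral genes, by 0.52. It was above in 9 of 13 nucleic acid sensors, by 0.40. In the 10 receptor and JAK-STAT genes the median was −0.26, with library 1 above in 4. Between the endotoxemic libraries the medians of the same 4 lists were −0.12, −0.04, −0.14 and −0.11.

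Of the 48 other antiviral genes, 9 had a negative estimate for LGK974 against control, while 29 were called higher. *Helz2*, *Trim34a*, *Cmpk2* and *Dtx3l*, named here after their values were seen, are 4 of the 9, and *Isg15* was 24.8-fold above the control level. *Cmpk2*, the neighbour of *Rsad2* on chromosome 12, had 4.82 and 6.07 CPM in the control, 15.8 and 26.7 CPM in the endotoxemic and 6.41 and 3.25 CPM in the LGK974 libraries. *Rsad2* was 2.36-fold above control in the same LGK974 libraries.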
